A study of Mus musculus with 9 samples.

Results

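Ribosome footprints were examined for 10 genes that encode RNA-binding proteins acting on AU-rich elements or on the mRNPs that carry them, besides TTP and its family. The genes were *Elavl1*, *Hnrnpd*, *Hnrnpdl*, *Hnrnpab*, *Khsrp*, *Tia1*, *Tial1*, *Ybx1*, *Pcbp1* and *Pcbp2*, found by their symbols among 16921 gene identifiers. All 10 were among the 10099 genes kept with a mean level of at least 10. The RiboSeq libraries came from one background, immortalized mouse bone marrow-derived macrophages (BMDMs) that lack TTP. The cells had been transduced with a retroviral vector that expresses its insert once doxycycline is given, either GFP alone, GFP-TTP or GFP-TTP-AA, where TTP-AA carries S52A and S178A and cannot be phosphorylated by MK2 at these residues. The transgenes held coding sequence without the TTP 3′UTR. Cells of all 3 conditions received doxycycline (1 µg/ml) for 6 h and LPS (1 µg/ml), the bacterial activator of macrophages, for 1 h, so that no unstimulated or wild-type macrophages enter the comparisons. Each condition had 3 libraries, and as each was a transduced cell line of its own, condition and line cannot be told apart. Nothing in the labels says that libraries of a condition came from separate cultures, so p-values may measure only technical spread.

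AU-rich elements are stretches of A and U in the 3′UTRs of many cytokine and early response mRNAs, with ATTTA (in DNA letters) as the core and TATTTAT as the longer site that TTP prefers. TTP recruits enzymes that shorten the poly(A) tail, while other proteins compete for or share the same elements. HuR, encoded by *Elavl1*, is best known for stabilizing bound mRNAs. AUF1 (*Hnrnpd*) and KSRP (*Khsrp*) are known to promote decay, and *Hnrnpdl* and *Hnrnpab* encode relatives of AUF1. TIA-1 and TIAR (*Tia1*, *Tial1*) silence translation and enter stress granules, YB-1 (*Ybx1*) packages mRNAs into mRNPs, and the KH-domain proteins of *Pcbp1* and *Pcbp2* bind C-rich stretches. A footprint level reflects both the amount of an mRNA and how many ribosomes it carries, and these cannot be told apart here. In bulk samples, neither can fewer cells of a type and less RNA per cell.

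The deposited table holds, for each gene and library, the value that the authors' model fitted and not the reads observed. In log2, libraries of a condition therefore differ in a gene only by a term for the replicate number, which is the same in all 3 conditions, and by the size factor of the library. Replicate spread enters solely through the standard errors of the comparison tables. Fitted values summed to 2570292 to 12804501 per library. Levels below are fitted values divided by the size factor, and level per kb is that level per kb of coding sequence. *Zfp36*, which encodes TTP, was at 457 in GFP, at 923 in GFP-TTP and at 1531 in GFP-TTP-AA libraries. It was higher in both transgene conditions than in GFP (adjusted p = 0.0049 and 2.3e-09). GFP-TTP-AA was also 1.66-fold above GFP-TTP (adjusted p = 0.039), so *Zfp36* level and the substitutions cannot be told apart in that comparison. Reads from the transgene and from what remains of the gene cannot be told apart either. Of 10 macrophage markers 9 were found by symbol and 8 were kept, summing to 94734, 75276 and 106916 in the 3 conditions in this order. Most of this was *Lyz2*, and without it the sums were 30914, 29444 and 35737. Markers of T cells, B cells, fibroblasts and epithelial cells summed to at most 8.03 per list, and those of neutrophils to 27.1, 25.6 and 55.8, nearly all of it *S100a8*.

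The mRNAs of several of these proteins hold AU-rich motifs themselves. Of 9886 kept genes with an annotated 3′UTR, 68.2% had at least 1 ATTTA on the sense strand and 28.7% had at least 1 TATTTAT, each of which contains an ATTTA. *Elavl1* (chr8:4285382-4325413, minus strand, GRCm38) had 17 ATTTA in an annotated 3′UTR of 4218 nt, and 8 of them lay in TATTTAT. These 8 lay 3796 to 3842 nt after the stop codon, so that an mRNA with an earlier 3′ end would lack them. Which 3′ ends these cells use was not tested. As many ATTTA or more were found in 3.62% of the 774 kept genes with 3′UTRs of similar length (0.8 to 1.25 times as long). *Pcbp1* (chr6:86524492-86526321, minus strand) had 3 ATTTA in only 353 nt, a number reached by 4.79% of 897 similar 3′UTRs. *Tia1* (chr6:86404219-86433405, plus strand) and *Tial1* (chr7:128439777-128461717, minus strand) had 8 and 3 ATTTA, and 1 TATTTAT each, with its ATTTA core at 112 nt and 94 nt after the stop codon. Among 3′UTRs of similar length as many ATTTA were found in 25.8% for *Tia1* and in 74.4% for *Tial1*, and a TATTTAT was found in 53.0% and 48.8%, so that neither stood out. The densest stretch of *Elavl1*, both *Tia1* family sites and 1 site of *Pcbp1* are shown to let clustered and single motifs be compared, with the motif in capitals.
Elavl1, 5 overlapping or adjacent TATTTAT (chr8:4285776-4285805, minus strand): TATTTATTTATTTATTTATtttTATTTATt
Tia1, 1 TATTTAT (chr6:86430467-86430496, plus strand): cagatacaatgTATTTATttaaaagattca
Tial1, 1 TATTTAT (chr7:128442422-128442451, minus strand): gaaaatgaaaaTATTTATtttaaaaattga
Pcbp1, 1 ATTTA (chr6:86524696-86524725, minus strand): catccgctaagaATTTAaagaaaaatcaca

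Neither *Pcbp1* nor the other 6 mRNAs had a TATTTAT. *Hnrnpd* (chr5:99955935-99978938, minus strand) had 10 ATTTA spread over 5429 nt, against a median of 9 in 416 similar 3′UTRs. *Hnrnpdl* (chr5:100033577-100039664, minus strand) and *Hnrnpab* (chr11:51600100-51606847, minus strand) had 2 each. *Khsrp* (chr17:57021051-57031522, minus strand) and *Pcbp2* (chr15:102470539-102500061, plus strand) had 1 each, and *Ybx1* (chr4:119277981-119294604, minus strand) had 0 in 418 nt. A motif is a match of letters and not evidence of binding.

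**Figure D1:**
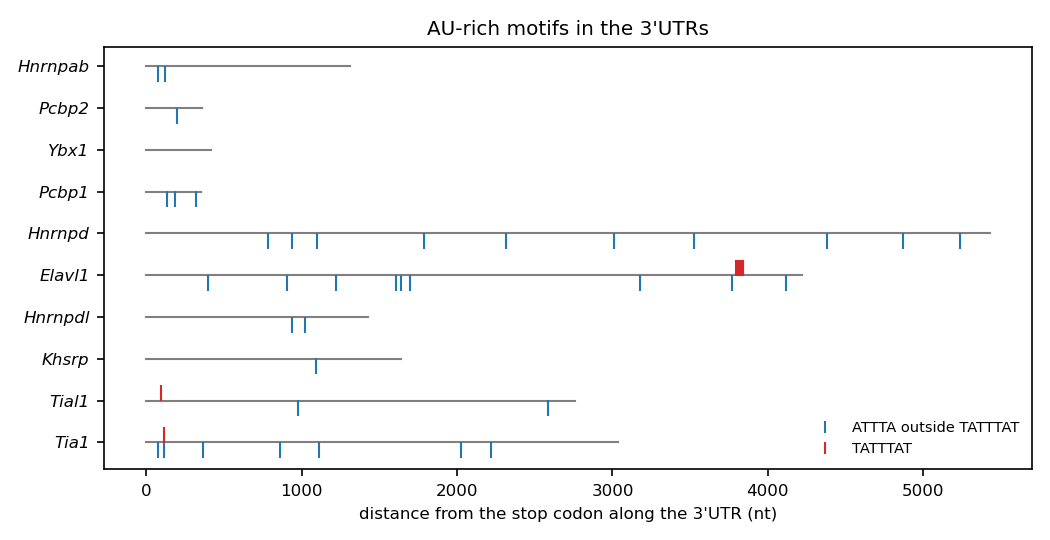
Motif positions along the annotated 3′UTR of each gene, with the distance from the stop codon in nt on the x axis and the length of the 3′UTR as a grey line. Red ticks are ATTTA within TATTTAT and blue ticks are ATTTA outside it, and the 8 red ticks of Elavl1 fall in one stretch.

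The 10 genes were translated at very different levels. Per kb of coding sequence, the mean over conditions ran from 8073 for *Hnrnpab* to 79.8 for *Tia1*, a ratio of 101. The median of 9965 kept genes with a coding length was 146 per kb, so that *Tia1* alone lay below it, at rank 6515, while *Hnrnpab* ranked 98. In order of level per kb, *Hnrnpab* was followed by *Pcbp2* (4791), *Ybx1* (3581), *Pcbp1* (2942), *Hnrnpd* (1552), *Elavl1* (1216), *Hnrnpdl* (784), *Khsrp* (716), *Tial1* (448) and *Tia1*. The ranges over 9 libraries overlapped between *Pcbp2* and *Ybx1*, *Ybx1* and *Pcbp1*, *Hnrnpd* and *Elavl1*, and *Hnrnpdl* and *Khsrp*. *Hnrnpdl* exceeded *Khsrp* in 7 of 9 libraries, and every other neighbour in the order held its place in all 9. By exonic length in place of coding length 6 of the 10 genes changed place, *Pcbp2* and *Hnrnpab* at the top among them. *Tial1* and *Tia1* encode close relatives, and the level per kb of *Tial1* was 4.31-fold to 8.85-fold that of *Tia1* within a library. Such ranges, counts and ratios over libraries come from fitted terms that the libraries share and do not measure the spread between them. Together the 10 genes made up 0.406%, 0.431% and 0.396% of the summed levels in GFP, GFP-TTP and GFP-TTP-AA.

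**Figure D2:**
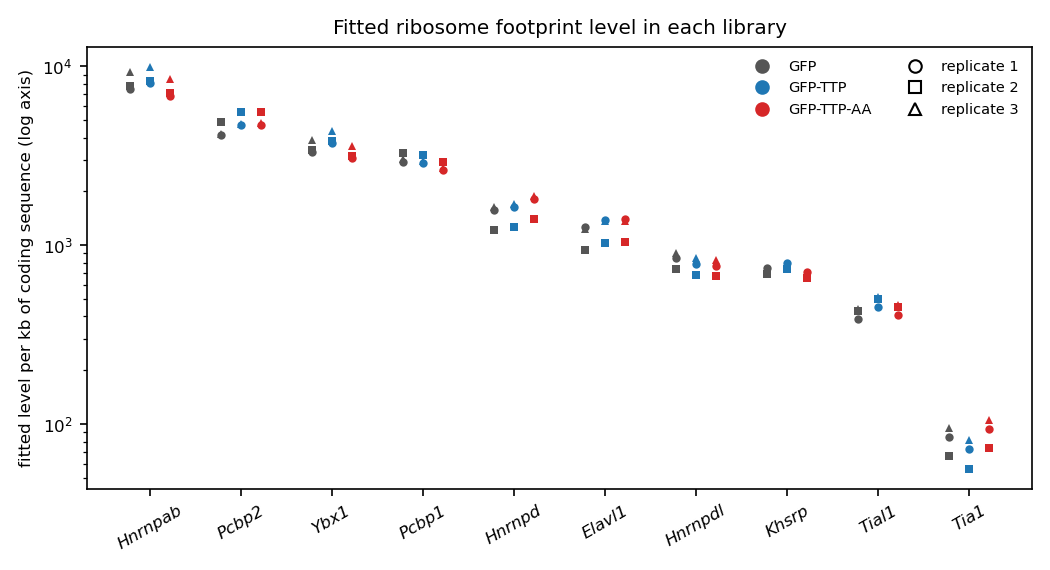
Fitted level per kb of coding sequence (log axis) for each gene, with 1 point per library, colours for the 3 conditions and symbols for the replicate number. The mean levels per kb span 79.8 (Tia1) to 8073 (Hnrnpab), and the 3 colours lie close together within each gene.

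No gene of the 10 passed the threshold (adjusted p under 0.05) in any of the 3 comparisons. For GFP-TTP against GFP 0 of 10 passed, where 2.09% of 9938 genes did. For GFP-TTP-AA against GFP 0 of 10 passed, where 3.03% of 10099 genes did, and for GFP-TTP-AA against GFP-TTP 0 of 10, where 10.2% did. At these shares a count of 0 among 10 genes is near the background. At an unadjusted p under 0.05 the counts were 0, 0 and 1, the last being *Ybx1*, against 11.3%, 14.2% and 22.1% of all genes. The comparisons share libraries pairwise and are not independent of each other. The median log2 difference of the 10 genes was 0.09, -0.01 and -0.08, beside 0.00, 0.01 and 0.01 for all genes. In size without sign the median difference was 0.13, 0.15 and 0.15 for the 10 genes and 0.15, 0.15 and 0.19 for all genes.

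**Figure D3:**
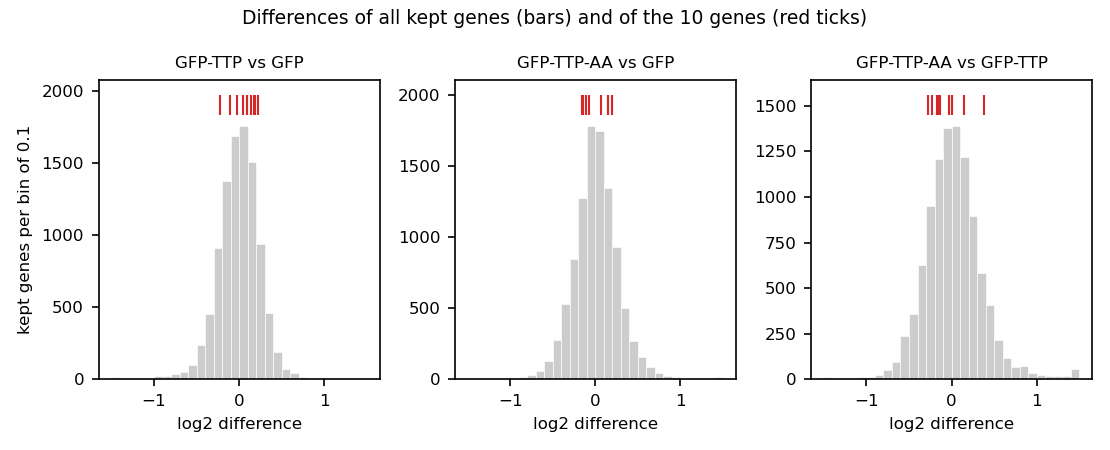
Number of kept genes per bin of 0.1 in log2 difference (grey bars) for the 3 comparisons, with differences beyond 1.5 counted in the outermost bins. Red ticks mark the 10 genes, which lie between -0.28 and 0.38 in the body of each distribution.

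These counts have to be read with the precision of the measurement. Standard errors of the 10 genes ran from 0.12 to 0.21 in log2. In GFP-TTP against GFP a log2 difference of about 0.39 would have passed for *Hnrnpab*, the gene with the smallest error, and 0.69 for *Tia1*, the one with the largest. In GFP-TTP-AA against GFP-TTP these limits were 0.33 and 0.59. Over all 30 intervals (95%, not adjusted for their number) the ends lay at -0.64 and 0.79, both for *Tia1*. These intervals are of differences shrunken by the authors' model. How much of a difference was kept can be computed if the largest standard error of all genes, 0.25, is the highest that shrinkage allows. This was assumed and not tested. For *Tia1*, the assumption gives 76.8% and 76.9% as the part kept in GFP-TTP against GFP and GFP-TTP-AA against GFP-TTP. Divided by it, the intervals ran from -0.84 to 0.24 and from -0.05 to 1.03. A smaller kept part, the other solution given in the last section, would widen them further. The limits above are sizes that an estimate had to reach to pass, and a true change of that size could still be missed.

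*Elavl1* levels in replicates 1, 2 and 3 were 1236, 919 and 1210 in GFP, 1362, 1012 and 1333 in GFP-TTP, and 1373, 1021 and 1344 in GFP-TTP-AA. Replicate 2 was the lowest in each condition, as 1 fitted replicate term is shared by all 3. The range of this term, 0.43 in log2, was wider than the 0.15 over conditions, so that the 3 conditions overlapped. Within each replicate number the order of the conditions was the same by construction. Neither overlap nor separation of fitted values, here and in the genes below, measures the spread between libraries. The log2 difference was 0.14 ± 0.13 (SE) for GFP-TTP against GFP, 0.15 ± 0.13 for GFP-TTP-AA against GFP, and 0.01 ± 0.13 for GFP-TTP-AA against GFP-TTP, with adjusted p of 0.76, 0.67 and 0.97. For this mRNA, whose annotated 3′UTR was the richest of the 10 in TATTTAT, the last interval ran from 0.849-fold to 1.20-fold.

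Of the AUF1 group, *Hnrnpd* was at 1674, 1297 and 1749 in GFP, 1732, 1342 and 1809 in GFP-TTP, and 1923, 1491 and 2009 in GFP-TTP-AA. Here too replicate 2 was lowest and the conditions overlapped, with a log2 difference of 0.20 ± 0.16 between GFP-TTP-AA and GFP (adjusted p = 0.66). *Hnrnpdl*, whose gene lies 54638 nt from *Hnrnpd* on chromosome 5, was at 1069, 933 and 1148 in GFP, at 990, 864 and 1063 in GFP-TTP, and at 971, 847 and 1043 in GFP-TTP-AA. Its log2 differences against GFP were -0.11 ± 0.15 and -0.14 ± 0.15 (adjusted p = 0.86 and 0.78), of opposite sign to those of *Hnrnpd*, though neither gene passed the threshold and the difference between the genes was not tested. *Hnrnpab* was at 6429, 6629 and 7940 in GFP, at 6860, 7074 and 8473 in GFP-TTP, and at 5854, 6037 and 7230 in GFP-TTP-AA. Replicate 3 was its highest in each condition. The groups overlapped, and GFP-TTP-AA differed from GFP-TTP by -0.23 ± 0.12 in log2 (adjusted p = 0.24). The median of 866 genes on chromosome 11 was -0.11 in that comparison, and with it subtracted the difference was -0.12 (adjusted p = 0.61).

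*Khsrp*, a gene of the decay-promoting proteins, was the most even of the genes between replicates, at 1678, 1546 and 1581 in GFP, 1789, 1649 and 1686 in GFP-TTP, and 1589, 1464 and 1498 in GFP-TTP-AA. The GFP-TTP-AA libraries all lay below the GFP-TTP libraries, and each overlapped with GFP. As the fitted values share a replicate term, this separation does not stand for independent libraries. It follows from a fitted log2 range of *Khsrp* that was wider over conditions (0.17) than over replicates (0.12). The log2 differences were 0.09 ± 0.12, -0.08 ± 0.12 and -0.17 ± 0.12 in the order of the comparisons above (adjusted p = 0.85, 0.88 and 0.44).

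*Tia1*, which encodes a translational silencer, had the lowest level and the largest standard errors of the 10 genes. It was at 98.4, 76.6 and 110.2 in GFP, 84.1, 65.4 and 94.2 in GFP-TTP, and 109.3, 85.1 and 122.4 in GFP-TTP-AA. It had both the widest spread over replicates and the largest fitted difference among the genes, 0.38 ± 0.21 in log2 or 1.30-fold (interval 0.976-fold to 1.73-fold) for GFP-TTP-AA against GFP-TTP, and the groups overlapped. This difference did not pass (adjusted p = 0.28), and 20.5% of all genes had one as large. *Tial1* was at 457, 506 and 518 in GFP, at 532, 588 and 603 in GFP-TTP, and at 479, 529 and 543 in GFP-TTP-AA. Every GFP-TTP library was above every GFP library, but the fitted values share 1 replicate term, so that such a separation, here and below, does not stand for 3 independent libraries. The log2 difference was 0.22 ± 0.16 (adjusted p = 0.67).

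*Ybx1* was at 3205, 3292 and 3739 in GFP, at 3620, 3718 and 4222 in GFP-TTP, and at 2978, 3059 and 3474 in GFP-TTP-AA. The highest GFP-TTP-AA library, 3474, was below the lowest GFP-TTP library, 3620, while GFP overlapped with both. The log2 difference between them was -0.28 ± 0.12 (0.823-fold, interval 0.695-fold to 0.973-fold). It was the only one of 30 with an unadjusted p under 0.05, and it did not pass over all genes (adjusted p = 0.14). Differences as large were found for 33.3% of genes in that comparison. Against GFP, the log2 difference of *Ybx1* was 0.18 ± 0.12 for GFP-TTP and -0.11 ± 0.12 for the mutant (adjusted p = 0.65 and 0.80).

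*Pcbp1* was at 3138, 3495 and 3248 in GFP, at 3063, 3412 and 3171 in GFP-TTP, and at 2800, 3119 and 2898 in GFP-TTP-AA. *Pcbp2* was at 4331, 5090 and 4398 in GFP, at 4935, 5800 and 5012 in GFP-TTP, and at 4950, 5817 and 5026 in GFP-TTP-AA. Both were highest in replicate 2, unlike the AUF1 group. The GFP-TTP-AA libraries of *Pcbp1* lay just below those of GFP, and the other pairs of groups overlapped in both genes. The log2 differences of *Pcbp1* and *Pcbp2* between GFP-TTP-AA and GFP were -0.16 ± 0.14 and 0.19 ± 0.15 (adjusted p = 0.67 and 0.65). *Pcbp2* was the gene with the smallest difference between GFP-TTP-AA and GFP-TTP, 0.00 ± 0.15 (interval 0.815-fold to 1.23-fold).

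**Figure D4:**
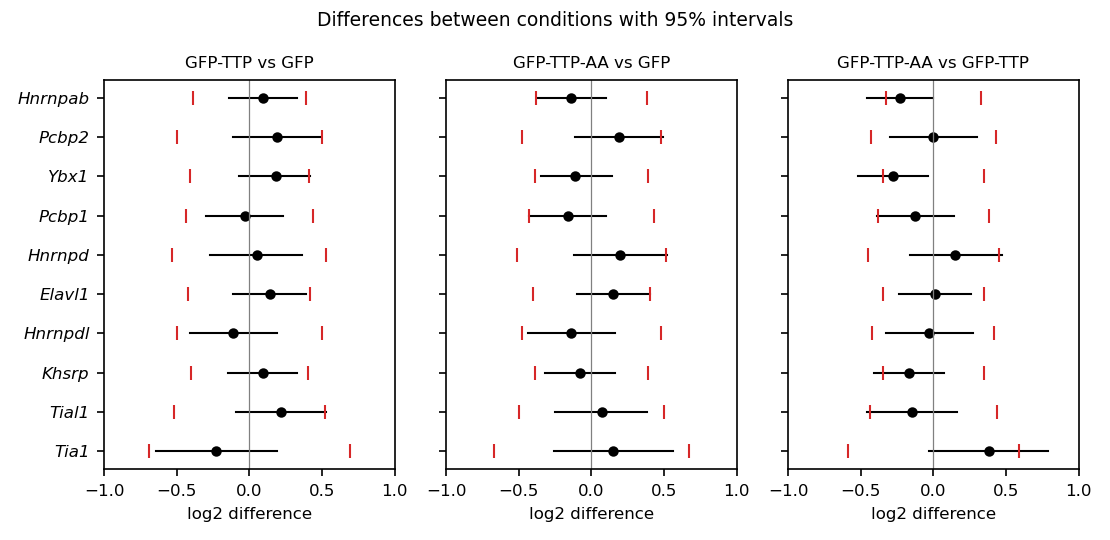
Log2 difference of each gene (points) with its 95% interval (black lines) in the 3 comparisons, and the approximate size at which a difference would have passed the threshold (red ticks). No point reaches its red tick, and of the 30 intervals only that of Ybx1 in GFP-TTP-AA against GFP-TTP, -0.52 to -0.04, leaves out 0.

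The median fitted range was wider over replicate numbers than over conditions, for the 10 genes as for all kept genes. Replicate terms carry no error here, so this was not tested. The fitted replicate term spanned a wider log2 range than the 3 conditions did in 6 of 10 genes, against 53.4% of all kept genes. The median range was 0.27 over replicates and 0.20 over conditions for the 10 genes, and 0.29 and 0.27 for all kept genes. The term was lowest in replicate 2 for 5 of 10 genes, as for 34.0% of kept genes. Of these 5, *Hnrnpdl* (-0.17) and *Khsrp* (-0.05) moved less than *Elavl1*, *Hnrnpd* and *Tia1* (-0.28, -0.27 and -0.30, relative to the median gene) whose ranges were 0.43, 0.43 and 0.53. Ranges as wide as that of *Tia1* were found in 14.7% of kept genes. *Khsrp*, with a range of 0.12, was exceeded by 88.5% of genes. As the term is fitted jointly for the 3 conditions, it cannot show whether a single library stood apart.

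**Figure D5:**
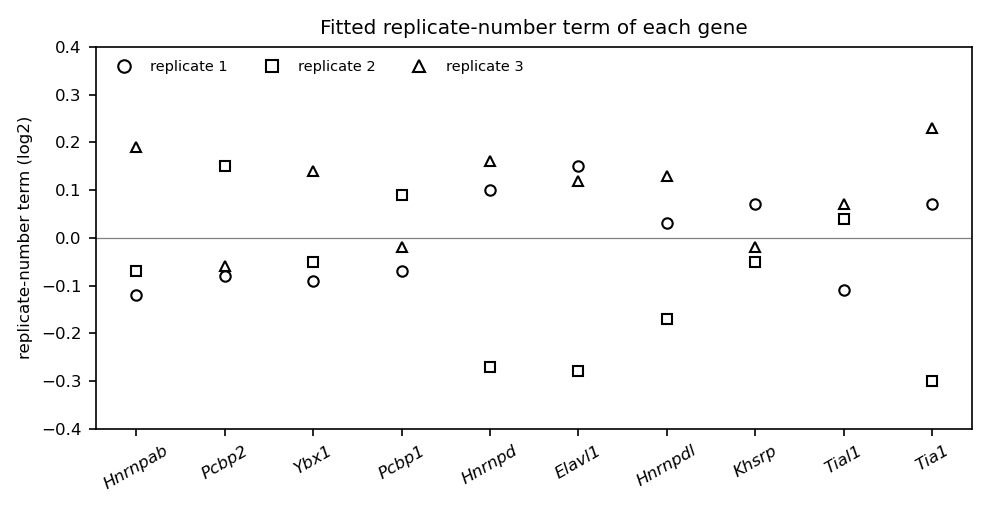
Fitted replicate-number term (log2, relative to the median gene) of each gene, with 1 symbol per replicate number. Replicate 2 is lowest for Hnrnpd (-0.27), Elavl1 (-0.28) and Tia1 (-0.30) and highest for Pcbp2 (0.15).

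Footprints are about as long as 28 nt, and the authors' mapping kept reads at up to 2 places, so copies of the coding sequences elsewhere in the genome bear on these values. Of 942 windows of 28 nt along the *Ybx1* coding sequence, 70.6% had an exact copy in at least 1 of 10 other places, and 45.0% in 2 or more. Of the 10 places 8 are annotated as processed pseudogenes, and those with a level in the table were all under 1. The most repeated window within 1 exon occurs 5 times elsewhere and is shown as an example of sequence not unique to the gene.
Ybx1, 5 further copies (chr4:119282395-119282422, minus strand): ccctggtggagttccagttcaaggcagt

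The share was 24.9% for *Hnrnpdl*, 18.2% for *Pcbp2*, 16.1% for *Khsrp* and 9.58% for *Pcbp1*, whose copy lies within the gene *Arhgap25*. It was 2.88% for *Hnrnpd*, 0.694% for *Tial1* and 0 for *Elavl1*, *Hnrnpab* and *Tia1*. No window was shared between the coding sequences of any of the 45 pairs of the 10 genes, although 4 windows of *Pcbp1* matched within the *Pcbp2* gene outside that sequence. How much of the *Ybx1* level and of its difference came from repeated windows was not tested.

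The 3 lists of related genes give the surroundings. Of 27 further AU-rich and U-rich element binding proteins, 20 to 22 were tested, and 3, 2 and 2 passed in the order of the comparisons (15.0%, 9.09% and 9.09%, against 2.09%, 3.03% and 10.2% of all genes). With *Zfp36* included, 6 of 20, 5 of 22 and 9 of 22 had an unadjusted p under 0.05, against 11.3%, 14.2% and 22.1% of all genes. The median log2 differences of this list were 0.03, 0.08 and -0.03. *Zfp36* was 1 of those passing each time, and without it the counts were 2 of 19, 1 of 21 and 1 of 21. Besides it, *Zfp36l2*, a TTP relative, fell against GFP by 0.82 in log2 in GFP-TTP and by 0.62 in the mutant (adjusted p = 0.00017 and 0.011). *Hnrnpa2b1* rose by 0.46 in GFP-TTP (adjusted p = 0.016). *Pcbp3*, a relative of *Pcbp1* and *Pcbp2*, whose proteins bind C-rich stretches, was 2.09-fold higher in GFP-TTP-AA than in GFP-TTP (adjusted p = 0.00025). It was translated at only 14.2 against 6.80.

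Of 24 symbols listed as partners in stress granules and mRNPs, 22 were tested, and 0, 3 and 4 passed (0%, 13.6% and 18.2%, against the same shares of all genes as above). *Atxn2* was also listed under another spelling, *Ataxn2*, so the list holds fewer genes than symbols. At an unadjusted p under 0.05 the counts were 5, 4 and 8 of 22, against 11.3%, 14.2% and 22.1% of all genes. *Igf2bp2*, which encodes an mRNA-binding protein of mRNP granules, rose to 371 in GFP-TTP-AA from 218 in GFP and 207 in GFP-TTP (1.71-fold and 1.79-fold, adjusted p = 0.00039 and 1.6e-05). Against GFP-TTP, *Pabpc1*, the poly(A)-binding protein, fell to 0.631-fold, *Ddx3x*, an RNA helicase, to 0.730-fold, and the stress granule protein gene *G3bp2* to 0.742-fold (adjusted p = 0.0021, 0.0033 and 0.039). *Ddx3x* and *Ewsr1* also fell in GFP-TTP-AA against GFP, to 0.737-fold and 0.726-fold (adjusted p = 0.012 and 0.0079). The median log2 differences of this list were 0.08, -0.01 and -0.20, beside 0.00, 0.01 and 0.01 for all genes.

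Of 26 textbook mRNAs with AU-rich elements, 23 were tested, and 1, 3 and 4 passed (4.35%, 13.0% and 17.4%, against 2.09%, 3.03% and 10.2% of all genes). Without *Zfp36* the counts were 0, 2 and 3 of 22. At an unadjusted p under 0.05 the counts were 7, 11 and 9 of 23, against 11.3%, 14.2% and 22.1% of all genes. The median log2 differences were -0.07, -0.22 and -0.11. With chromosome medians subtracted, the last 2 of these medians were -0.14 and -0.04. *Ier3*, an early response gene, fell from 1603 in GFP and 1230 in GFP-TTP to 696 in GFP-TTP-AA (0.434-fold and 0.566-fold, adjusted p = 2.3e-10 and 3.8e-05). The cytokine gene *Il23a* fell from 16.8 in GFP to 8.20 in GFP-TTP-AA (adjusted p = 0.0016). *Ccnd1*, a D cyclin, and the chemokine gene *Ccl3* fell to 0.687-fold and 0.749-fold against GFP-TTP (adjusted p = 0.041 and 0.028).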

How the data were processed

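RiboSeq of 9 libraries was analysed. The authors trimmed reads (Trim Galore), mapped them with TopHat2 (version 2.0.12 in the submitters' processing notes) to GRCm38 (mm10) with up to 2 alignments per read, counted them per gene (HTSeq in these notes) and fitted the counts with DESeq2 1.6.3, with terms for library date and condition. The deposited table named as normalized counts holds a signal, the size factor times the fitted mean; after condition, replicate-number and library terms the log2 values left an SD of 2.89e-15. Of 16932 lines, 11 repeat an identifier. The authors' comparison tables hold log2 fold changes with standard errors, their own mean levels, Wald statistics and p-values. The standard errors were used as the errors of the log2 differences, and the deposited log2 fold changes to recover the size factors (0.416 to 2.14), with the median gene set equal between replicate numbers. The authors' mean levels set the overall scale. The statistics and p-values were not used. Log2 differences between fitted condition levels were divided by the standard errors of the authors' DESeq2 model, and two-sided normal p-values were adjusted by the Benjamini-Hochberg method over genes with a mean level of at least 10 (threshold 0.05). In GFP-TTP against GFP, genes without a standard error were not tested. Replicate-based tests planned for counts were not possible on fitted values.

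The 10 genes and the lists were chosen with earlier results of these data known. Named genes are the 10, *Zfp36*, and up to 4 passing genes per list and comparison. Gene models, 3′UTRs and coding lengths came from GENCODE vM21 on GRCm38, and 28-nt coding windows were matched on both strands of that genome. For each gene 1 protein-coding transcript was used, the best by APPRIS rank and then the longest. Levels are means without a pseudocount. Reads per library were not used here, so depth enters only through the standard errors. Steps were tested on simulated data. Tools were Python 3.11.15, pandas 2.3.3, NumPy 2.4.6, SciPy 1.17.1 and matplotlib 3.10.9. RNASeq and iCLIP data were not analysed here.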

Additional observations from a re-analysis of the deposited data

How the results depend on the processing

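Alternatives were no filter on low values, a mean level of at least 50, the median of all genes or of the chromosome subtracted, library totals as size factors, adjustment over the 3 comparisons together, and a pseudocount of 10 (value only). None of the 10 genes passed under any of the 6 with a test, the smallest adjusted p being 0.077 for *Ybx1* in GFP-TTP-AA against GFP-TTP with the chromosome median subtracted. All 180 tested differences kept their side of the threshold and 178 kept their direction, and the 30 values with the pseudocount kept theirs. *Pcbp2* in GFP-TTP-AA against GFP-TTP became -0.0015 with the median of all genes subtracted, and *Pcbp1* in GFP-TTP against GFP became 0.02 with the chromosome median subtracted, both near 0 before. *Hnrnpab* moved from -0.14 to -0.06 in GFP-TTP-AA against GFP and from -0.23 to -0.12 in GFP-TTP-AA against GFP-TTP with the chromosome median subtracted. By exonic length *Khsrp* moved from place 8 to 5, *Hnrnpd* from 5 to 7, *Elavl1* from 6 to 8 and *Hnrnpdl* from 7 to 6, and *Pcbp2* and *Hnrnpab* exchanged places 1 and 2. With the 3 comparisons adjusted together, 1 partner in stress granules and mRNPs passed in GFP-TTP against GFP, and 2 textbook mRNAs and 1 further binding protein passed in GFP-TTP-AA against GFP-TTP; with a mean level of at least 50 this last list had 1, and with the chromosome median subtracted 4.

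The log2 differences are shrunken by the authors' model. Under the assumption stated above for *Tia1*, the standard errors give 76.8% to 94.0% as the kept part for the 10 genes. The other solution is 5.98% to 23.2%. The 100 genes with the largest errors had a median level of 27.0, and all 10 genes lay above it, at 94.0 or more. Leaving out a library was not run, as fitted values carry no spread of their own. No paired analysis was possible because the deposited values hold no residuals to refit. The authors' fit, whose standard errors were used, already had a term for the library date, seen in the fitted values as a replicate-number term, so the comparisons here are those within that term.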
